A study of Mus musculus with 12 samples.

Results

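The tissue inhibitors of metalloproteinases (Timps) and the extracellular metalloproteinases of the heart were examined in 12 mouse hearts after pressure overload. The group held 10 genes out of the 13552 in the expression table, Timp1, Timp2, Timp3, Timp4, Mmp2, Mmp14, Mmp15, Adamts1, Adamts4 and Adamts9. They were chosen by name with their values in these hearts already known, Timp1 for its height in the WT TAC hearts and Mmp15 for its drop in the KI TAC hearts. For this reason the TAC against sham values of the 10 genes are given as a description, without p values. All 10 passed the filter on low values that 11240 genes passed, 2 of them (Timp1 and Adamts4) only through the TAC hearts in which they were high.

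The design compared 4 groups of 3 male C57BL/6 mice, aged 8 to 10 weeks. WT mice carried wild-type Bcl-xL, and KI mice carried Bcl-xL with serine 14 replaced by alanine (S14A), which removes a phosphorylation site of this anti-apoptotic protein. Transverse aortic constriction (TAC) ties the aorta around a needle and raises the pressure load on the left ventricle, and sham mice had the same operation without the tie. Hearts were taken 9 h after surgery, and their poly(A) RNA was sequenced. The WT mice were bought from a supplier, whereas the KI line was made from targeted ES clones, had its selection cassette removed by crossing to CMV-Cre mice, and was backcrossed to C57BL/6J. Every comparison of KI with WT therefore also compares a bred line with purchased mice, and these cannot be told apart.

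Timps bind the active site of matrix metalloproteinases (Mmps) and of some disintegrin metalloproteinases, and so hold back the breakdown of extracellular matrix. Mmp2 is a secreted gelatinase, and Mmp14 and Mmp15 are anchored in the cell membrane, and Mmp14 activates the Mmp2 precursor together with Timp2. The Adamts enzymes are secreted and carry thrombospondin repeats, and Adamts1, Adamts4 and Adamts9 cut large proteoglycans such as versican and aggrecan. In the pressure-loaded heart the balance of these enzymes and inhibitors is known to shape the remodelling of the matrix.

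Levels are in RPKM, read counts scaled by transcript length and by library size, which allows genes of different length to be compared. Fold changes are differences of log2(RPKM + 1) from a fit of all 4 groups, with the standard error (SE) of that fit. The libraries held 23650180 to 32455180 reads on genes, and mitochondrial genes took 6.36 to 12.5% of the level. The S14A change does not alter how a read is counted, so the level of Bcl2l1, the gene of Bcl-xL, did not check the genotype labels. Bcl2l1 stood at 7.04, 14.2 and 15.4 RPKM in WT sham, 7.496, 17.2 and 6.59 in WT TAC, 6.67, 19.1 and 15.96 in KI sham, and 35.8, 37.0 and 24.5 in KI TAC hearts. The median gene shifted by -0.12 on the log2 scale between KI TAC and WT TAC hearts, and median-ratio scaling moved that median by 0.15. Of the genes called between KI TAC and WT TAC hearts 26.4% were higher in KI, and 46.0% after quantile normalization or 58.6% after median-ratio scaling. Whole hearts were used, so that fewer cells of a type and less RNA per cell cannot be told apart. P-values set a difference against the spread between mice of the same group, estimated from all 4 groups of 3 mice together.

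Timp1 was nearly silent in sham hearts and far higher after TAC in both genotypes. It had the highest mean of the 4 Timps in WT TAC hearts, and in KI TAC hearts its mean was below those of Timp3 and Timp2. This gene encodes a secreted inhibitor that is widely known as an early response gene in injured tissue. It lies on the X chromosome (chrX:20870166-20874735, plus strand, GRCm38), within the span of Syn1 on the opposite strand. WT sham mice 1, 2 and 3 had 0.666, 0.333 and 0.369 RPKM, which rested on 19, 7 and 8 reads. WT TAC mice 7, 9 and 10 had 52.7, 33.1 and 39.7 RPKM, from 870 to 1203 reads. Every WT TAC heart was thus far above every sham heart, and the group means, 41.8 ± 9.97 and 0.456 ± 0.183 (SD, n = 3), differed 91.7-fold. KI sham mice 1, 2 and 3 had 1.47, 0.709 and 0.555 RPKM, and KI TAC mice 5, 6 and 7 had 23.3, 17.9 and 26.9. The KI TAC mean of 22.7 ± 4.54 was 24.9 times that of KI sham, 0.913 ± 0.492 (SD, n = 3). On the log2(RPKM + 1) scale the difference was 4.86 (SE 0.22) in WT and 3.64 (SE 0.22) in KI. No KI TAC heart reached the lowest WT TAC heart, and the KI TAC minus WT TAC difference was -0.85 (SE 0.22).

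The promoters of Timp1, Mmp15 and Adamts1 are shown because, among the 10 genes, Timp1 had the highest log2 difference from sham in WT TAC hearts, Mmp15 the lowest in KI TAC hearts, and Adamts1 the highest of the proteases in KI TAC hearts. Each is a 300-base window from RefSeq (GRCm38.p6), 250 bases before the start of the gene to 50 after it, read 5′ to 3′ on the strand of the gene. Capitals mark matches to the AP-1 motif (TGANTCA), the GC box (GGGCGG), the TATA motif (TATAAA), the E-box (CACGTG) or the CArG box, searched on both strands. These motifs occurred in 7.81, 35.7, 13.6, 7.15 and 1.63%, in that order, of all 32851 promoter windows. The Timp1 window (chrX:20869916-20870215, plus strand) held 1 GC box, on the reverse strand, and no other match.
Timp1: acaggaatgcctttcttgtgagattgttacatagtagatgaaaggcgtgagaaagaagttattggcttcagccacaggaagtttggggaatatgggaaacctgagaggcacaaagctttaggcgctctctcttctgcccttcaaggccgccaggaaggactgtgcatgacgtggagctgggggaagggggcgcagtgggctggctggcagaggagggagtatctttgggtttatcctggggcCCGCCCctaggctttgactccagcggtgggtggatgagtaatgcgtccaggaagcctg
The Mmp15 window (chr8:95352046-95352345, plus strand) also held 1 reverse GC box and nothing else.
Mmp15: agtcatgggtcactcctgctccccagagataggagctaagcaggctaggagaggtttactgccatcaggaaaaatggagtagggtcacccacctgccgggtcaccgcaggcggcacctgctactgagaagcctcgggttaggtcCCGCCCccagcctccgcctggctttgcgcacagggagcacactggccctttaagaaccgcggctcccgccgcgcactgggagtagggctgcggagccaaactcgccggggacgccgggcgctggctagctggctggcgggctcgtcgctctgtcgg
The Adamts1 window (chr16:85803064-85803363, minus strand) held 3 GC boxes and a TATA motif, 32 bases before the start, and none of these matches overlapped another.
Adamts1: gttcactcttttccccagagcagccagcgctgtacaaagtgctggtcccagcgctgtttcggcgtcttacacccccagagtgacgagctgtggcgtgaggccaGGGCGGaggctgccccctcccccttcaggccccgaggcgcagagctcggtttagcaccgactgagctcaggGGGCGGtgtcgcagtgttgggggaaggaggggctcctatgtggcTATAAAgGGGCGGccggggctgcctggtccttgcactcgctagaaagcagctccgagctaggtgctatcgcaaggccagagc
Of the 10 genes 8 had a window in the RefSeq table, and 7 of these held at least 1 GC box. A match describes the letters of the window and does not show that a factor binds there.

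Timp2, which inhibits Mmp2 and also takes part in its activation, lay between 44.97 and 50.1 RPKM in all 6 sham hearts. The gene is on chromosome 11 (chr11:118301069-118355740, minus strand) and overlaps Cep295nl on the same strand. Sham hearts held 50.1, 48.1 and 44.99 RPKM in WT and 49.8, 44.97 and 46.1 in KI. After TAC the values were 35.9, 28.2 and 48.7 in WT mice 7, 9 and 10, and 23.6, 25.3 and 41.5 in KI mice 5, 6 and 7. WT TAC mouse 10 stayed within the sham range, whereas all 3 KI TAC hearts lay below every KI sham heart. The log2 difference was -0.37 (SE 0.23) in WT and -0.67 (SE 0.23) in KI. KI TAC and WT TAC hearts overlapped and their difference did not pass the test (-0.32, 95% interval -0.82 to 0.18, limma adjusted p = 0.371).

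Timp3, the inhibitor that binds to the matrix and also blocks Adam and Adamts enzymes, stood highest in KI TAC hearts. Its locus is on chromosome 10 (chr10:86300372-86349506, plus strand) within the span of Syn3, which read 0.0602 ± 0.0118 RPKM on the opposite strand in KI TAC hearts (SD, n = 3). Levels were 18.2, 45.6 and 45.1 RPKM in WT sham and 20.1, 36.5 and 25.3 in WT TAC hearts, with full overlap between them. KI sham mice had 19.1, 32.3 and 44.1 RPKM, and KI TAC mice 85.1, 61.1 and 61.1, above every other heart of the study. Mouse 1 of each sham group had the lowest sham value. The TAC minus sham difference was -0.33 (SE 0.36) in WT and 1.15 (SE 0.36) in KI. Between KI TAC (69.1 ± 13.9, n = 3) and WT TAC hearts (27.3 ± 8.42, n = 3) the ratio of means was 2.53, with a log2 difference of 1.33 (SE 0.36, 95% interval 0.56 to 2.11, limma adjusted p = 0.0334).

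Timp4, an inhibitor that is known for its abundance in heart muscle, had a lower mean after TAC in WT and a higher mean after TAC in KI mice. It is found on chromosome 6 (chr6:115241892-115252205, minus strand) within the span of Syn2. WT sham hearts had 7.56, 11.2 and 13.2 RPKM, and WT TAC mice 7, 9 and 10 had 1.76, 12.7 and 2.92. Mice 7 and 10 were below all sham hearts and mouse 9 was among them, so that the WT groups overlapped (log2 difference -1.11, SE 0.50). KI sham mice 1, 2 and 3 had 4.22, 13.2 and 13.0 RPKM, and KI TAC mice 5, 6 and 7 had 15.5, 21.7 and 22.3, above every sham heart (log2 difference 1.02, SE 0.50). KI TAC hearts exceeded WT TAC hearts 3.41-fold in mean, without overlap, and the log2 difference was 1.96 (SE 0.50, 95% interval 0.89 to 3.02, limma adjusted p = 0.0267). Syn2 on the other strand had 0.315 to 1.57 RPKM in WT TAC and 1.08 to 1.84 in KI TAC hearts. Its part in the Timp4 values was not tested.

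**Figure D1:**
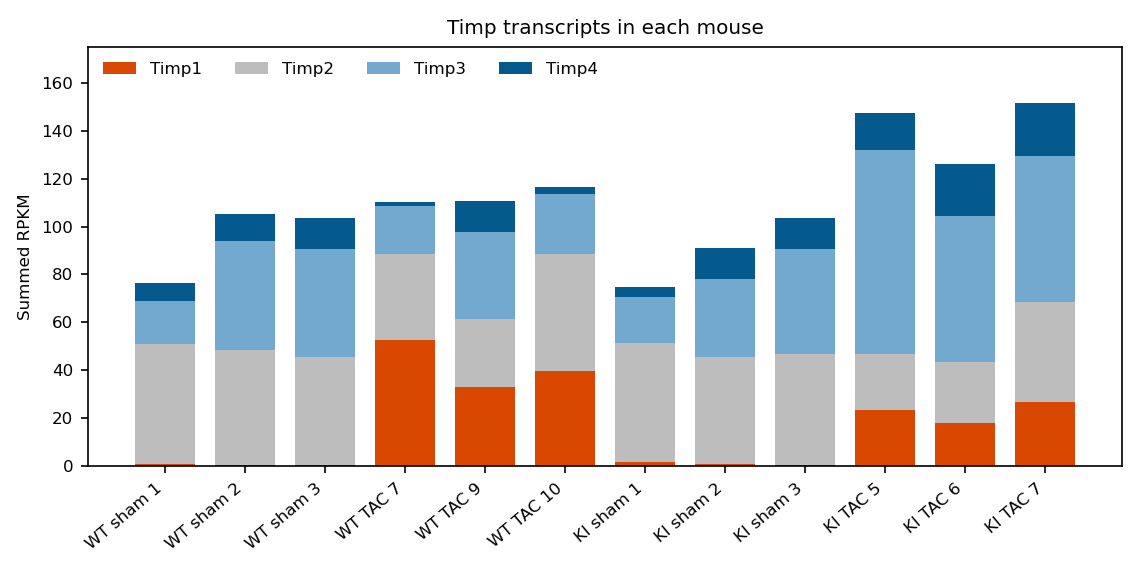
Summed RPKM of the 4 Timp genes (y axis) in each of the 12 mice (x axis), stacked by gene, with the bars starting at 0. Timp1 takes 29.9 to 47.7% of the bar in WT TAC mice and 14.2 to 17.7% in KI TAC mice, and the KI TAC bars are the tallest because of Timp3.

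The 4 Timps together amounted to 95.2 ± 16.1 RPKM in WT sham, 113 ± 3.53 in WT TAC, 89.8 ± 14.6 in KI sham and 142 ± 13.8 in KI TAC hearts (SD, n = 3). Timp1 made up 0.514 ± 0.309% of that sum in WT sham and 37.2 ± 9.32% in WT TAC hearts. In KI it made up 1.10 ± 0.772% in sham and 15.9 ± 1.77% in TAC hearts. The smaller Timp1 share in KI TAC hearts came with both a lower Timp1 and a higher Timp3 level. Without Timp3 in the sum the shares were 48.8% in WT TAC and 31.5% in KI TAC hearts. In all 6 sham hearts the share was below 2%, and the stacked plot of the Timp levels shows these mice with almost no Timp1.

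Mmp15, a membrane-type metalloproteinase, was the most abundant of the 13 Mmps in the table in all 6 sham hearts. Its position is chromosome 8 (chr8:95352268-95375080, plus strand). WT sham mice had 130, 102 and 117 RPKM, and WT TAC mice 7, 9 and 10 had 76.1, 41.7 and 78.9. KI sham mice had 138, 113 and 117 RPKM, and KI TAC mice 5, 6 and 7 had 27.6, 19.0 and 21.5. The 4 groups fell into 3 levels without overlap, with the sham hearts of both genotypes highest, WT TAC next and KI TAC lowest. WT TAC hearts kept 0.564 of the sham mean (65.6 ± 20.7 against 116 ± 13.9) and KI TAC hearts 0.185 (22.7 ± 4.41 against 122 ± 13.5, SD, n = 3). The log2 difference was -0.87 (SE 0.24) in WT and -2.39 (SE 0.24) in KI, and -1.45 (SE 0.24) between KI TAC and WT TAC hearts. Mmp15 remained the leading Mmp in 5 of the 6 TAC hearts, and in KI TAC mouse 7 Mmp2, at 27.7 RPKM, was above it.

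Mmp2, on chromosome 8 (chr8:92827291-92853420, plus strand), did not separate the groups. Its levels were 23.9, 14.8 and 19.0 RPKM in WT sham, 12.01, 9.83 and 17.7 in WT TAC, 20.3, 20.9 and 19.8 in KI sham, and 12.1, 15.0 and 27.7 in KI TAC hearts. The TAC hearts overlapped the sham hearts in both genotypes, with log2 differences of -0.53 (SE 0.28) in WT and -0.23 (SE 0.28) in KI. The KI TAC minus WT TAC difference was 0.40 (95% interval -0.20 to 1.00, limma adjusted p = 0.352).

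Mmp14, which cuts collagen at the cell surface, was low in sham hearts and higher after TAC in both genotypes. Its locus is on chromosome 14 (chr14:54431612-54445364, plus strand). WT mice had 1.81, 0.639 and 1.14 RPKM after sham surgery and 3.62, 3.19 and 3.68 after TAC. KI mice had 2.10, 1.26 and 1.28 RPKM after sham surgery and 3.64, 3.37 and 6.50 after TAC. No TAC heart overlapped a sham heart, and the log2 difference was 1.07 (SE 0.23) in WT and 1.08 (SE 0.23) in KI. The difference between these 2 changes was 0.02 (95% interval -0.68 to 0.71, limma adjusted p = 0.987), so that a difference of either sign within this interval was not excluded.

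**Figure D2:**
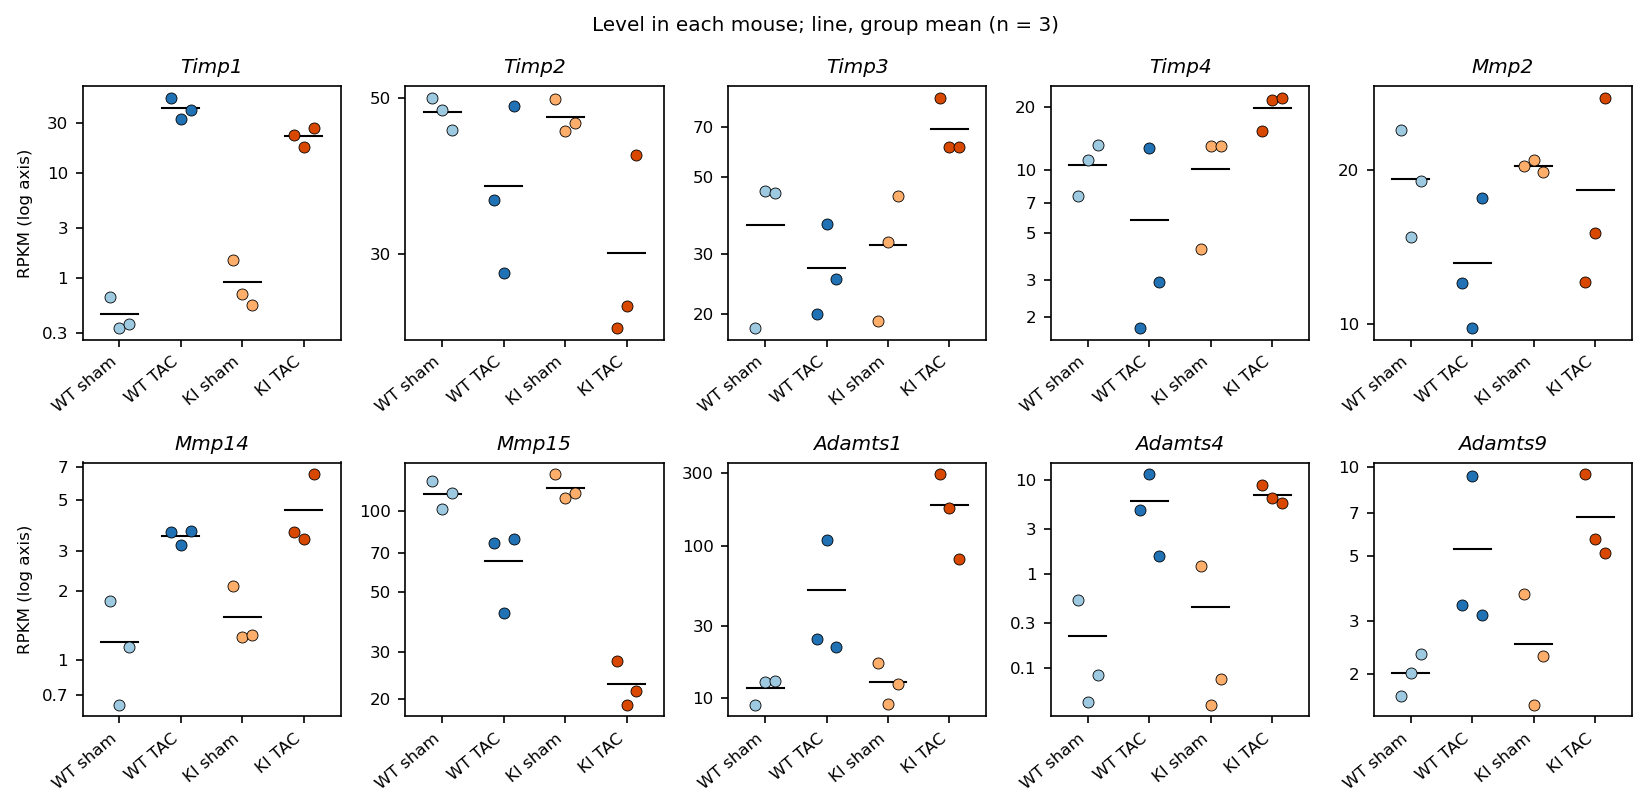
Level of each of the 10 genes in RPKM (y axis, log scale with its own range in each panel) in the 4 groups (x axis), with a point for each mouse and a line at the mean of 3 mice. Within each genotype Timp1, Mmp14, Adamts1, Adamts4 and Adamts9 lie wholly higher in TAC than in sham hearts, and Mmp15 wholly lower. Timp3 and Timp4 lie highest in KI TAC hearts. WT TAC mouse 9, the middle point of its group, stands above its group mates for Adamts1, Adamts4, Adamts9, Timp3 and Timp4.

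Adamts1 reached the highest level of any of the 10 genes. It encodes a secreted protease of versican and aggrecan and lies on chromosome 16 (chr16:85793827-85803113, minus strand). WT sham mice had 9.09, 12.8 and 13.1 RPKM, and WT TAC mice 7, 9 and 10 had 24.5, 109 and 21.6. KI sham mice had 17.0, 9.11 and 12.3 RPKM, and KI TAC mice 5, 6 and 7 had 296, 178 and 81.8. TAC hearts were above sham hearts in both genotypes, and WT TAC mouse 9 lay inside the KI TAC range while its group mates lay below it. The log2 difference from sham was 1.67 (SE 0.53) in WT and 3.61 (SE 0.53) in KI. The KI TAC mean of 185 ± 107 was 3.59 times the WT TAC mean of 51.6 ± 49.4 (SD, n = 3), a log2 difference of 2.04 (SE 0.53, 95% interval 0.90 to 3.18, limma adjusted p = 0.0287).

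Adamts4, the aggrecanase, was near 0 in 4 of the 6 sham hearts. The gene is on chromosome 1 (chr1:171250421-171260637, plus strand). WT mice had 0.531, 0.0440 and 0.0851 RPKM after sham surgery, from 82, 5 and 10 reads, and 4.72, 11.5 and 1.57 after TAC. KI mice had 1.22, 0.0413 and 0.0769 RPKM after sham surgery, and 8.71, 6.44 and 5.65 after TAC. Mouse 1 of each sham group was the highest of its group, yet below all TAC hearts. The log2 difference was 2.24 (SE 0.44) in WT and 2.53 (SE 0.44) in KI, and 0.46 between KI TAC and WT TAC hearts (95% interval -0.48 to 1.40, limma adjusted p = 0.499).

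Adamts9, the longest of these proteases, was also higher after TAC in both genotypes, with a smaller range. Its position is chromosome 6 (chr6:92772699-92943492, minus strand). WT mice had 1.68, 2.01 and 2.33 RPKM after sham surgery and 3.40, 9.33 and 3.14 after TAC. KI mice had 3.71, 1.57 and 2.30 RPKM after sham surgery and 9.46, 5.70 and 5.11 after TAC. The groups did not overlap within either genotype, with log2 differences of 0.94 (SE 0.32) in WT and 1.14 (SE 0.32) in KI. The KI TAC minus WT TAC difference was 0.39 (95% interval -0.30 to 1.09, limma adjusted p = 0.431).

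**Figure D3:**
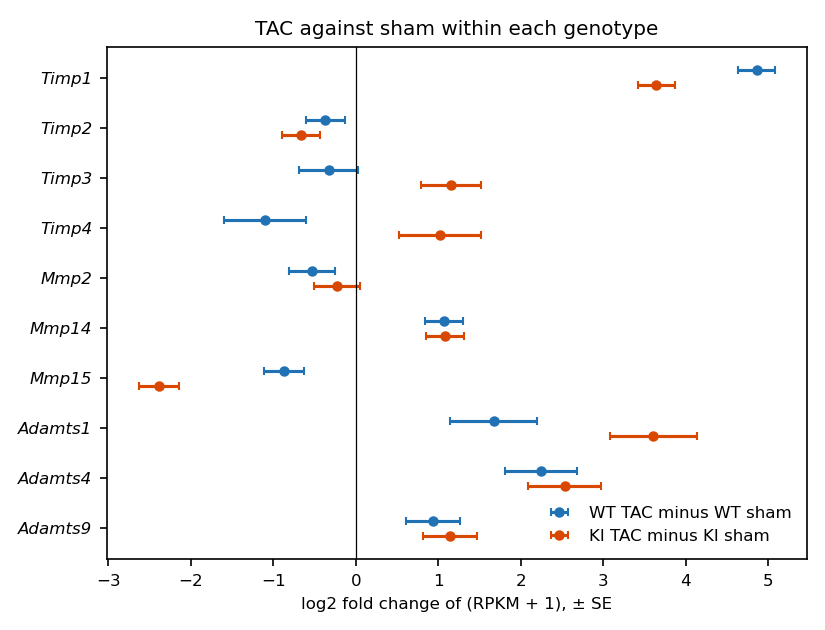
TAC minus sham difference of log2(RPKM + 1) (x axis) for the 10 genes (y axis) in WT and KI mice, with bars of 1 SE from the fit of 12 mice. Timp1 is farther right in WT (4.86) than in KI (3.64), Mmp15 is farther left in KI (-2.39), Adamts1 is farther right in KI (3.61), and Timp3 and Timp4 lie on opposite sides of 0 in the 2 genotypes.

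Set side by side, WT TAC hearts had 5 of the 10 genes wholly above the sham hearts (Timp1, Mmp14, Adamts1, Adamts4 and Adamts9) and 1 wholly below (Mmp15), where 20.0% and 15.0% of all genes tested were so. KI TAC hearts had 7 wholly above (the same 5 genes, Timp3 and Timp4) and 2 wholly below (Mmp15 and Timp2), against 13.6% and 24.7% of all genes. The genes were selected on these values, so the counts describe the list and nothing is read from them. For the same reason the numbers with an adjusted p under 0.05 in limma, 3 higher and 1 lower in WT and 6 higher and 1 lower in KI, are no test of the list. Over all genes 6.96% were called higher and 4.60% lower in WT, and 8.57% and 14.7% in KI.

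Between KI TAC and WT TAC hearts, Timp3 and Timp4 were wholly higher and Timp1 and Mmp15 wholly lower, where 10.1% of all genes were wholly higher and 19.4% wholly lower. Adamts1, Timp3 and Timp4 passed the limma threshold upward, where 2.92% of all genes were called higher and 8.13% lower. Timp1 and Mmp15 were chosen on their TAC levels, and their differences are a description only. The 3 tests share their mice with the values by which the genes were chosen and are not independent of that choice. The adjusted p values of Timp3, Timp4 and Adamts1 lay near the threshold. All 3 calls ended when WT TAC mouse 7, WT TAC mouse 10 or KI TAC mouse 6 was left out, with log2 differences of 1.14, 1.30 and 1.41 for Timp3, 1.49, 1.74 and 1.89 for Timp4, and 1.72, 1.63 and 1.98 for Adamts1. Leaving out KI TAC mouse 5 ended the calls of Timp3 (1.18) and Adamts1 (1.61). Over all single omissions the log2 difference ran from 1.14 to 1.56 for Timp3, 1.49 to 2.64 for Timp4 and 1.61 to 2.77 for Adamts1. When just the 6 TAC hearts were fitted, the limma adjusted p was 0.0727 for Timp4 and 0.0996 for Adamts1. Over all alternatives the adjusted p ran from 0.0211 to 0.146 for Timp3, from 0.00147 to 0.130 for Timp4 and from 0.00172 to 0.133 for Adamts1, and the direction was the same in each.

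Between the sham hearts of KI and WT mice none of the 10 genes passed the limma test, in which 2 genes, or 0.0178% of those tested, were called (37 had an unadjusted p under 0.05). The log2 differences ran from -0.17 for Timp4 to 0.37 for Timp1. None of the 10 genes was wholly higher or lower in KI sham hearts, where 2.08% and 1.19% of all genes were. The intervals were wide for some, as for Timp4 (-0.17, 95% interval -1.24 to 0.90) and Adamts1 (0.10, 95% interval -1.04 to 1.24), so that a difference of up to this size was not excluded here. Whether TAC changed a gene differently in KI and WT mice was tested by the interaction of genotype and surgery. None of the 10 genes and 0% of all genes passed at an adjusted p under 0.05, by limma or by limma-voom on the recovered reads, while 1668 and 1689 genes had an unadjusted p under 0.05. The interaction was 1.48 for Timp3 (SE 0.51, adjusted p = 0.223), 2.13 for Timp4 (SE 0.70, adjusted p = 0.214) and 1.94 for Adamts1 (SE 0.75, adjusted p = 0.259). Without WT TAC mouse 9 it was 2.82 for Timp4 (adjusted p = 0.0176) and 2.67 for Adamts1 (adjusted p = 0.0308), by limma, and 232 of 11191 genes then passed in all.

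Markers of other cells also differed between the hearts. Summed over the 3 measured of 5 neutrophil markers (S100a8, S100a9 and Csf3r), the level was 0.508 to 1.27 RPKM in WT sham, 3.69 to 9.87 in WT TAC, 0.395 to 0.505 in KI sham and 4.18 to 20.3 in KI TAC hearts. Mouse 9 was the highest of the WT TAC group and mouse 5 of the KI TAC group, as they were for Adamts1, Adamts4 and Adamts9. S100a8 was at 0 in at least 1 WT sham heart and S100a9 in at least 1 KI sham heart. The 6 macrophage and leukocyte markers summed to 56.4 to 77.4 RPKM in WT sham, 72.4 to 133 in WT TAC, 60.8 to 72.0 in KI sham and 73.7 to 86.2 in KI TAC hearts. The list did not move as a whole in KI, where C1qa, C1qb and Cd68 were higher after TAC without overlap, and Csf1r (12.4 to 15.1 RPKM in sham and 8.32 to 9.45 in TAC hearts) and Adgre1 (3.90 to 6.05 and 2.72 to 3.32 RPKM) were lower without overlap. The 6 fibroblast markers summed to 113 to 171 RPKM in WT sham, 134 to 610 in WT TAC, 135 to 221 in KI sham and 92.2 to 168 in KI TAC hearts, with mouse 10 the highest WT TAC heart. Col1a1 had the highest mean of the list in all 4 groups (65.4 RPKM in WT sham and 239 in WT TAC hearts), Dcn had 41.6 and 41.2 RPKM in the WT groups, and Lum was lower in KI TAC (4.57 to 5.65 RPKM) than in KI sham hearts (10.2 to 15.3). The 5 endothelial markers summed to ranges that overlapped in each genotype, 225 to 322 RPKM in all, although Pecam1 was higher in KI TAC (32.1 to 39.5 RPKM) than in KI sham hearts (22.2 to 27.6). The 6 cardiomyocyte markers summed to 12667 to 22829 RPKM in the 12 hearts, which are labelled as heart tissue, and Actc1 made up most of the sum in mean. Means of Myh6 were 4115 in WT sham, 1883 in WT TAC, 3277 in KI sham and 3179 in KI TAC hearts, with the WT groups apart. In WT hearts the means after sham surgery and after TAC were 2213 and 1303 RPKM for Myl2 and 567 and 309 RPKM for Tnni3, without overlap, whereas the KI groups overlapped for both. Pln was apart in KI (182 to 230 RPKM in sham and 83.2 to 152 in TAC hearts) and overlapped in WT, and Tnnt2 and Actc1 overlapped in both genotypes. The 6 mural and smooth muscle markers summed to 147 to 165 RPKM in WT sham, 182 to 194 in WT TAC, 135 to 190 in KI sham and 138 to 175.4 in KI TAC hearts. The 5 red blood cell markers summed to 145 to 171 RPKM in WT sham, 74.8 to 114 in WT TAC, 134 to 244 in KI sham and 97.7 to 257 in KI TAC hearts. The part of these cells in the values of the 10 genes was not tested.

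The genes closest to Timp1 across the 12 hearts, by Pearson correlation of log2(RPKM + 1), were Csf2rb2 (r = 0.992) and Csf2rb (0.985), which encode cytokine receptor beta chains, Msn (0.981), which encodes moesin, Adam8 (0.979) and the tubulin gene Tubb2a (0.978). Csf2rb2 had a mean of 0.219 RPKM in WT sham, 1.95 in WT TAC, 0.267 in KI sham and 1.67 in KI TAC hearts. The genes closest to Mmp15 were Tle2 (0.992), a transcriptional corepressor, Gal3st3 (0.989), a sulfotransferase, Tmem94 (0.981), Plekhn1 (0.978) and the connexin gene Gja3 (0.976). Tmem94 had a mean of 94.3 RPKM in WT sham, 63.6 in WT TAC, 97.3 in KI sham and 23.5 in KI TAC hearts, the same order of groups as Mmp15 after TAC. The points share the 4 groups, so these correlations describe the group pattern and carry no test.

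Other metalloproteinase genes were taken from a list of 60 further Mmps, Adamts, Adamts-like, Adam and astacin genes and inhibitors, of which 40 were in the table and 27 passed the filter. Among the 27, Mmp3, Mmp9, Mmp19, Adamts8 and Adam8 were below 1 RPKM in all 6 sham hearts and passed the filter only through TAC hearts, so the count of rises is not independent of the filter. In WT TAC hearts 11 of the 27 rose and 1 fell (6.96% and 4.60% of all genes), with a median log2 difference of 0.45 beside 0.04 for all genes. In KI TAC hearts 5 rose and 6 fell (8.57% and 14.7% of all genes), with a median of -0.18 beside -0.10. Without the filter 15 of the 40 rose and 1 fell in WT, and 7 rose and 7 fell in KI, where 930 and 575 of all 13552 genes did so in WT and 1057 and 1869 in KI. Between KI TAC and WT TAC hearts none was called higher and 8 were called lower (2.92% and 8.13% of all genes), with a median of -0.40 beside -0.12. The 8 became 5 after quantile normalization, 3 after median-ratio scaling and 2 when just the 6 TAC hearts were fitted, with none higher in each, and the genes called lower over the whole table went from 914 to 613, 533 and 141. The counts also depended on single mice, as did those of all genes. The WT count of 12 dropped to 7 on omitting sham mouse 1 or sham mouse 3, to 4 on omitting sham mouse 2 and to 6 on omitting TAC mouse 7, while the 1299 calls over all genes went to 858, 682, 655 and 582 in that order. The KI count of 11 dropped to 7 on omitting sham mouse 1 or TAC mouse 5, with 2620 calls over all genes going to 2132 and 1838. Of the 8 calls between the TAC groups, 1 was left on omitting mouse 7 of WT, 3 on omitting mouse 10 of WT or mouse 5 of KI, and 2 on omitting mouse 6 of KI. Over all genes the 1242 calls went to 154, 770, 629 and 182 on omitting WT mouse 7, WT mouse 10, KI mouse 5 and KI mouse 6. None of the 27 was called between the sham groups (0 at an unadjusted p under 0.05) or by the interaction (10 at an unadjusted p under 0.05) in limma, and limma-voom called none either.

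Adamts8, a secreted protease of the Adamts family, rose most of the 27 in WT TAC hearts. It went from 0.358, 0.220 and 0.373 RPKM in WT sham to 7.09, 3.38 and 6.04 in WT TAC hearts (log2 difference 2.26, SE 0.21). It was tested only through its TAC levels, so its p values against sham and between the TAC groups are from limma without the filter (adjusted p = 8.23e-05 in WT). KI sham hearts had 0.647, 0.352 and 0.461 RPKM and KI TAC hearts 0.923, 0.855 and 1.82, and the KI TAC hearts were lower than WT TAC (-1.55, SE 0.21, limma adjusted p = 0.00384). Adam19, a membrane sheddase, had 11.8, 6.76 and 14.1 RPKM in WT sham and 30.6, 26.8 and 23.9 in WT TAC hearts (1.29, SE 0.30, adjusted p = 0.0149 by limma). In KI it had 21.3, 8.33 and 12.2 RPKM after sham surgery and 6.48, 8.24 and 10.1 after TAC, below every WT TAC heart (-1.61, SE 0.30, adjusted p = 0.00869 by limma). Neither gene passed the interaction test over all genes (limma adjusted p = 0.102 for Adamts8 without the filter and 0.104 for Adam19). Without KI TAC mouse 7 both passed (0.0205 and 0.0484 by limma), and without WT TAC mouse 9 Adamts8 did (0.00414 by limma), where 183 and 232 of all genes passed. These fits with a mouse left out kept the filter, which Adamts8 met only through TAC hearts, so its passing there is a description.

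The other large rises in WT TAC hearts were Adam8 (1.49), a leukocyte sheddase, Adamts2 (1.17), a procollagen protease, and Mmp3 (1.15), stromelysin. In KI TAC hearts the rises were Mmp3 (1.26), Adam8 (1.08), Adam15 (0.87), Mmp9 (0.58), a gelatinase of leukocytes, and Mmp19 (0.48). Adamts7, which cuts cartilage oligomeric matrix protein, fell in both genotypes, from 16.5 to 19.2 RPKM in WT sham to 6.99 to 9.18 in WT TAC hearts (-1.04, SE 0.24, limma adjusted p = 0.0128). In KI it fell from 15.5 to 20.4 RPKM to 2.05 to 5.62 (-2.02, SE 0.24, limma adjusted p = 0.000121), and KI TAC hearts were below WT TAC hearts (-0.95, SE 0.24, limma adjusted p = 0.0251). In KI TAC hearts Adamtsl4 (-1.22), Mmp11 (-1.19), Adamts10 (-0.91) and Reck (-0.56), a membrane-bound Mmp inhibitor, also fell. Mmp11 (-1.12) and Adamts15 (-0.94) were also lower in KI hearts than in WT hearts after TAC. Each of these differences passed the limma threshold with all mice, and Mmp3, Adam8, Mmp9 and Mmp19 also did so without the filter, but several rested on single mice. Adam19 no longer passed in WT without sham mouse 2 (1.01) or TAC mouse 7 (1.20), nor between the TAC groups without WT mouse 7 (-1.52), while Adamts8 passed in both of these comparisons under every alternative. Between KI TAC and KI sham hearts Adamts8 did not pass (0.54, adjusted p = 0.0822 by limma without the filter). It did with a pseudocount of 0.1, after both other scalings, with limma-voom and in the fit of 2 groups. These alternatives all kept the filter, which Adamts8 met only through TAC hearts, so nothing is read from them. Adamts7 no longer passed between the TAC groups without WT mouse 7 (-0.86), WT mouse 10 (-0.95) or KI mouse 6 (-0.64), nor after median-ratio scaling (-0.78) or with just the 6 TAC hearts fitted (limma adjusted p = 0.0879). The calls of Mmp11 and Adamts15 between the TAC groups, of Adamts2 and Mmp3 in WT, and of Mmp9, Mmp19 and Reck in KI were each lost on omitting any of 3 or more mice. Other scalings or the fit of 2 groups also ended the calls of Mmp11, Adamts15 and Mmp9.

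**Figure D4:**
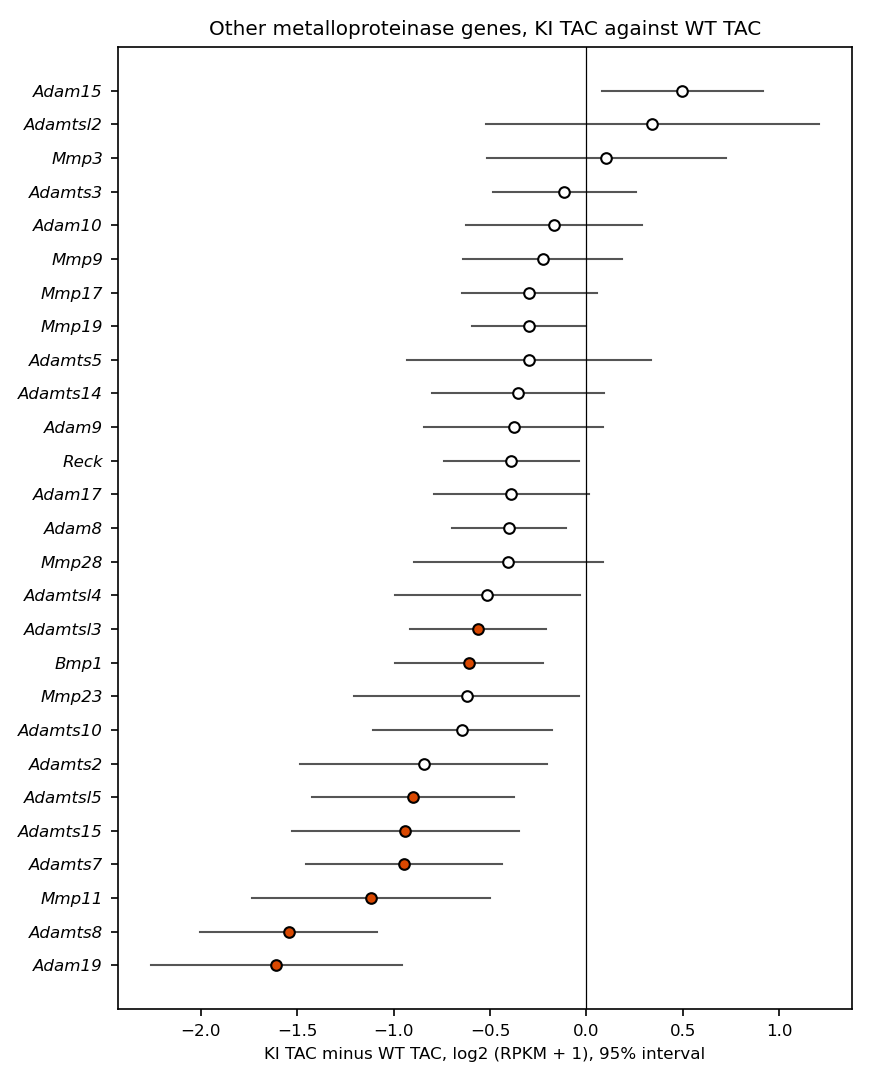
KI TAC minus WT TAC difference of log2(RPKM + 1) (x axis) for the 27 further metalloproteinase and inhibitor genes tested (y axis), with 95% intervals from the fit of 12 mice and filled points for the 8 genes with an adjusted p under 0.05. All 8 lie left of 0, from -1.61 (Adam19) to -0.56, where 8.13% of all genes tested were called lower. The median of the 27 is -0.40, beside -0.12 for all genes.

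Among 6 activators and surface partners of these enzymes, 5 were tested, and Cd44 and the substrate gene Vcan passed the filter on low values only through TAC hearts, so that the p values of both are from limma without the filter. Cd44, a hyaluronan receptor that docks Mmps at the cell surface, rose in WT TAC (1.79, SE 0.28, limma adjusted p = 0.00200) and KI TAC hearts (1.77, SE 0.28, limma adjusted p = 0.00097). Pcsk6, a proprotein convertase, fell in both (-1.31, SE 0.24, limma adjusted p = 0.00379 in WT and -1.65, SE 0.24, limma adjusted p = 0.000427 in KI). Of 5 tested proteoglycan and basement membrane substrates, 1 rose in each genotype, where 6.96% of all genes were called higher in WT and 8.57% in KI. This was Vcan, the gene of versican, the substrate shared by Adamts1, Adamts4 and Adamts9. It had 0.499, 0.696 and 0.733 RPKM in WT sham and 4.56, 3.86 and 7.30 in WT TAC hearts (1.89, SE 0.25, limma adjusted p = 0.000677). KI sham hearts had 1.96, 0.532 and 0.699 RPKM and KI TAC hearts 4.88, 3.51 and 5.25 (1.47, SE 0.25, limma adjusted p = 0.00153). Lrp1, an endocytic receptor that clears metalloproteinases and Timps, was lower in the KI hearts than in the WT hearts after TAC (-0.87, SE 0.26, limma adjusted p = 0.0451), as was Hspg2, the gene of perlecan (-1.10, SE 0.31, limma adjusted p = 0.0386). Neither difference passed without WT TAC mouse 7, WT TAC mouse 10 or KI TAC mouse 6 (-0.76 to -0.88 for Lrp1 and -0.87 to -1.18 for Hspg2), nor did Lrp1 without KI TAC mouse 5 (-0.69) or Hspg2 without WT TAC mouse 9 (-1.12). Both were also lost after median-ratio scaling (-0.67 and -0.90) and when just the 6 TAC hearts were fitted.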

How the data were processed

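Hearts of 12 male mice (4 groups of 3) were profiled by strand-specific poly(A) RNA-seq with single 75-cycle reads. The authors trimmed reads with Trimmomatic 0.39, mapped them to GRCm38 with HISAT2 2.2.1, counted them with HTSeq 0.6.1 and analysed them with edgeR 3.18.1. The deposited values are RPKM per gene. The step from counts to RPKM, the filter that set the gene list and the strand setting are not given in the sources used here. Multiplied by exon length in GENCODE vM21 (GRCm38), the values summed to between 997702 and 1002230 in each library, close to the sum that RPKM has by definition. Low values came in steps of whole reads (97.1 to 98.2% within 0.05 of a whole read), which gave the depth.

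Because the deposited unit is RPKM, limma 3.58.1 (R 4.3.3; trend, 4 groups) was fitted to log2(RPKM + 1) for genes with at least 1 RPKM in at least 3 mice, with Benjamini-Hochberg adjustment and a threshold of 0.05. The pseudocount of 1 understates the change of low genes. Tables and plots were made with Python 3.11.15, numpy 2.4.6, pandas 2.3.3 and matplotlib 3.10.9, and the fit was tested on simulated data. The members and gene lists were chosen with earlier results of these data known. Named were all members, at most 5 genes per direction, list and comparison past the threshold, the 5 genes most correlated with Timp1 and with Mmp15, and Bcl2l1. Syn2 and Syn3 were named because they overlap members, and another overlapping gene is not reported here. The motifs were chosen after the values were seen. Alternatives were a pseudocount of 0.1, no filter, quantile and median-ratio scaling, limma-voom on recovered reads, fits of 2 groups, a replicate block and leaving out each mouse.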

Additional observations from a re-analysis of the deposited data

How the results depend on the processing

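Without the filter the 10 genes gave the same counts of calls in every comparison. Between KI TAC and WT TAC hearts the count of 5 was 2 in the fit of these 2 groups alone, which has fewer mice, and the count of 8 further metalloproteinase genes was 5 after quantile normalization, 3 after median-ratio scaling and 2 in that fit, where the cause was not tested. The interaction of Mmp14 changed sign with a pseudocount of 0.1 (-0.12) and with limma-voom (-0.10). Without Timp3 in the sum, the Timp1 share was 48.8% in WT TAC and 31.5% in KI TAC hearts. Of 660 values of single genes 588 kept direction and side of the threshold, 35 were no longer past it, 10 were newly past it and 27 changed sign.

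With each mouse left out in turn, the count of the 10 genes ran from 2 (without WT sham mouse 2) to 6 (without WT TAC mouse 10) in WT TAC against sham, from 1 to 5 in KI TAC against WT TAC and from 0 to 4 (without WT TAC mouse 9) for the interaction. These counts include Timp1 and Mmp15, which were chosen on their TAC values. Over all genes the calls ran from 582 to 1505 in WT and from 1448 to 2727 in KI TAC against sham. Those between the TAC groups ran from 154 to 1812 and those of the interaction from 0 to 232. For the further genes the count ran from 4 to 10 in WT TAC against sham, from 7 to 12 in KI TAC against sham, from 1 to 10 between the TAC groups and from 0 to 4 for the interaction. Signs changed within these ranges for KI sham against WT sham: Timp2 -0.066 to 0.012, Timp3 -0.57 to 0.17, Timp4 -0.41 to 0.31, Mmp2 -0.065 to 0.26, Mmp15 -0.014 to 0.16, Adamts1 -0.11 to 0.31, Adamts4 -0.18 to 0.37 and Adamts9 -0.041 to 0.40. They also changed for Mmp2 in KI TAC against sham (-0.56 to 0.0073), for Adamts4 between the TAC groups (-0.11 to 1.03, below 0 without WT TAC mouse 10), and for the interaction of Mmp2 (-0.031 to 0.53), Mmp14 (-0.23 to 0.21), Adamts4 (-0.29 to 0.86) and Adamts9 (-0.032 to 0.63). Wide ranges without a change of sign in WT TAC against sham were 0.94 to 2.08 for Adamts1, 0.51 to 1.17 for Adamts9 and -1.79 to -0.64 for Timp4.

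Both sham groups carry the numbers 1 to 3. The deviations of mice of the same number had correlations of -0.22, -0.30 and 0.44, beside -0.35 to 0.43 for mice of different numbers. With 3 such values it cannot be told whether the numbers pair the mice. With a replicate block, 0 of the 10 genes and 0 of all genes were called between the sham groups, where 2 were called without it. The smallest changes rest on 3 mice a group.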
